A study of Drosophila melanogaster with 32 samples.

Results

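The genes of the circadian clock of Drosophila melanogaster were followed in whole adult flies of 4 stocks. The members are the 8 genes with the FlyBase symbols Clk, cyc, per, tim, vri, Pdp1, cwo and cry, chosen by name from a gene count table of 17490 genes, and all 8 were found. Flies of 3 mutant stocks were set against the wild type Oregon-R. Pof[D119] is a deletion that removes coding sequence of Pof, whose protein binds genes of the small chromosome 4. Zhr[1] lacks the large block of repeated satellite DNA near the centromere of the X-chromosome, and PoX2[Df1.688] lacks a short satellite array in the X-chromosome arm. Males of the Zhr[1] stock carried a Y-chromosome without translocation. Each stock was sampled as males and as virgin females, which gave 8 groups of 4 libraries and 32 libraries in all. Each library was made from 10 pooled flies, of which 3 were aged 6 to 8 h, 4 were aged 14 to 16 h and 3 were aged 22 to 24 h after hatching. The stocks were not made isogenic, so a difference from wild type cannot be told apart from a difference in strain background. The hour of the day at collection and the light cycle are not given in the sources used here.

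In the fly clock, the proteins of Clk and cyc pair on DNA and switch on per, tim, vri, Pdp1 and cwo. The proteins of per and tim then enter the nucleus and inhibit the pair, which closes the main loop. In a further loop, the vri protein represses Clk and cry while the Pdp1 protein activates Clk, and the cwo protein represses targets of the pair. The product of cry is a blue light receptor that leads to the breakdown of the tim protein. In heads of flies in a cycle of light and dark, RNA of per, tim, vri, Pdp1 and cwo is high around dusk and early night, RNA of Clk and cry is high around dawn, and RNA of cyc stays level. The clock genes are therefore compared between groups as a check on time of collection. That check is weak, since each library pools flies of age windows from 6 to 24 h after hatching. Levels that differ by hour can average out within such a pool. The phases above are also those of heads, while whole flies were sampled.

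All 8 genes were detected in every library, with raw counts from 190 to 14332. Within a group, the coefficient of variation of a gene had a median of 6.61% and was under 10% in 54 of 64 combinations of gene and group. Levels are given as CPM the read pairs of a gene relative to the total of its library after TMM scaling, a factor that balances library composition. Per kilobase of exon, the 8 group means were 6.55 to 8.61 CPM for per, 7.10 to 19.6 CPM for Clk and 10.3 to 18.1 CPM for cyc. They were 15.4 to 32.7 CPM for vri, 20.4 to 29.98 CPM for cwo, 23.5 to 31.5 CPM for Pdp1, 24.7 to 34.8 CPM for cry and 20.2 to 44.7 CPM for tim. The RNA of per and of both activators was thus the least abundant of the set in each of the 8 groups.

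The members lie on the chromosome arms X, 2L, 3L and 3R of release 6.13. The gene per is on X (chrX:2685580-2692780), tim (chr2L:3493986-3508119) and vri (chr2L:5288944-5311223) are on 2L, Clk (chr3L:7763233-7775603), Pdp1 (chr3L:7811458-7867369) and cyc (chr3L:19813770-19815938) are on 3L, and cwo (chr3R:10388258-10400752) and cry (chr3R:19212154-19215442) are on 3R. Exons of per share 49 bases with dyw on the opposite strand, and those of cry share 9 bases with vib. The other 6 members share no exon base with another gene.

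Total gene counts were 12186486 to 37992591 a library, with deeper libraries in wild type and Pof[D119] than in the other stocks. The gene Pof had 11.4 to 13.8 CPM in Pof[D119] males, against 306 to 341 CPM in wild-type males, and 6.59 to 9.93 CPM in Pof[D119] females, against 12.9 to 14.4 CPM in wild-type females. In whole flies, fewer cells of a type and less RNA per cell cannot be told apart. Summed levels of 6 female germline markers were 1371 to 1793 CPM in Zhr[1] females, 1125 to 1278 CPM in PoX2[Df1.688] females and 445 to 1179 CPM in Pof[D119] females, against 742 to 995 CPM in wild-type females. Summed levels of 10 eye markers were 1300.02 to 1847 CPM in Zhr[1] females, 1691 to 2147 CPM in PoX2[Df1.688] females and 2373 to 3112 CPM in Pof[D119] females, against 2494 to 3379 CPM in wild-type females. None of these markers was at 0 in all libraries of a female group.

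Each mutant was compared with wild type of the same sex by edgeR's quasi-likelihood test with Benjamini-Hochberg adjustment over all tested genes, and a gene was called at an adjusted p below 0.05. Adjusted p-values in the text come from this test and measure the spread between pools of flies, and ± after a log2 fold change is its standard error. The 3 comparisons of a sex share the same 4 wild-type libraries. The member called in each of the 6 comparisons was vri, which was lower in each mutant group than in wild type of the same sex. Clk was higher in Zhr[1] and PoX2[Df1.688] males and lower in Zhr[1] females. Of the others, tim was higher in Pof[D119] and PoX2[Df1.688] males, per was lower in Zhr[1] males, cry was lower in Zhr[1] females and cwo was lower in Pof[D119] males. No call was made for cyc or Pdp1.

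**Figure D1:**
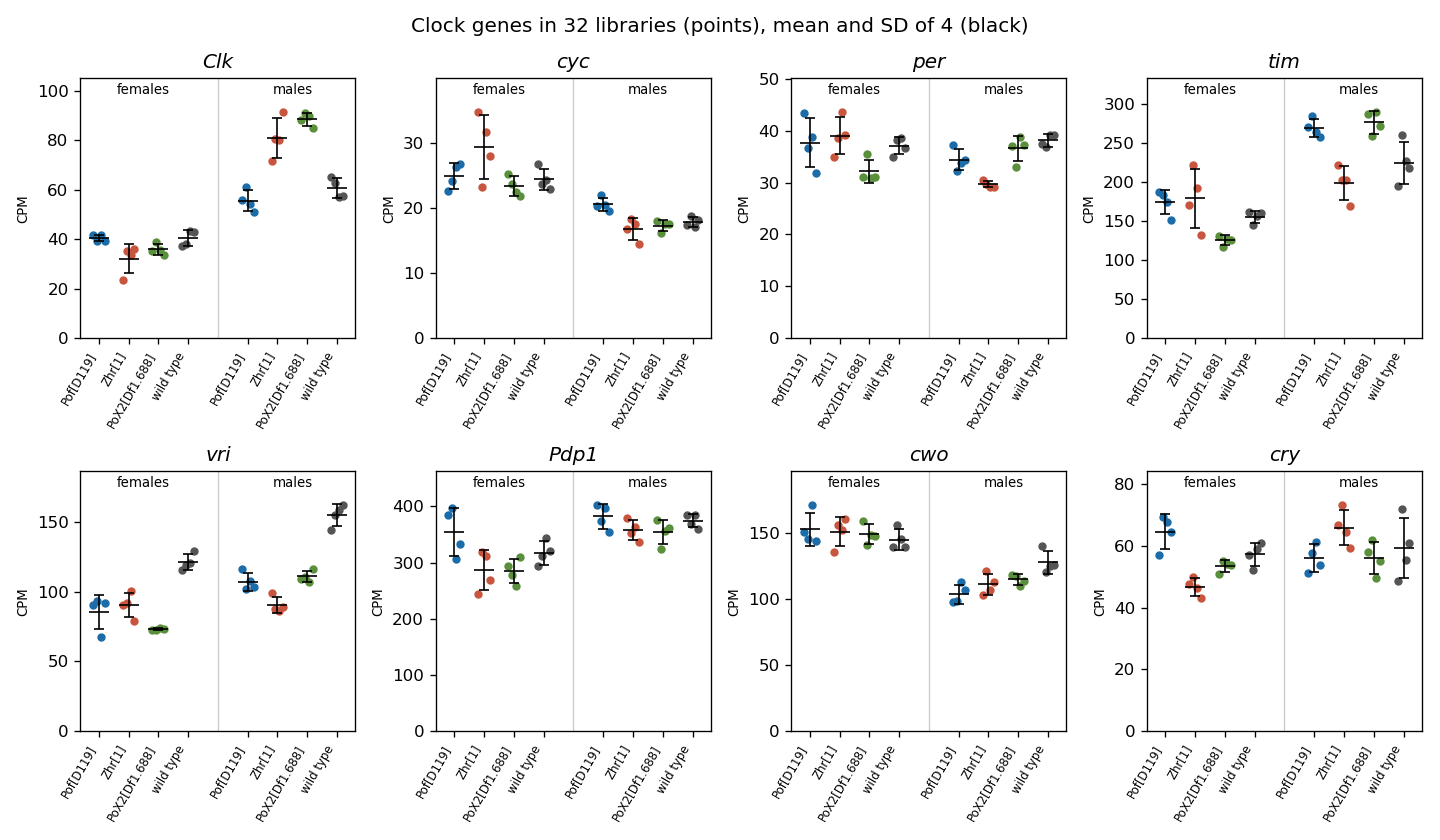
Level (CPM, linear axis from 0) of each clock gene in the 32 libraries by stock and sex, with 1 point a library and the mean and SD of 4 in black. The points of vri in the mutants lie below those of wild type of the same sex, and Clk points of Zhr[1] and PoX2[Df1.688] males lie above those of wild-type males.

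In females, 1 of 8 members was called in Pof[D119], against 16.5% (8.08% higher and 8.4% lower) of 11938 genes tested, 3 of 8 in Zhr[1], against 41.1% (20.3% higher and 20.8% lower), and 1 of 8 in PoX2[Df1.688], against 19.4% (8.9% higher and 10.5% lower). In males, 3 of 8 members were called in each mutant, against 25.2% (13.6% higher and 11.6% lower) of 13503 genes tested in Pof[D119], 22.9% (12.6% higher and 10.4% lower) in Zhr[1] and 20.9% (11.5% higher and 9.4% lower) in PoX2[Df1.688]. The members' counts are read against these shares, and the values below are given gene by gene. The median log2 fold change over the 8 members lay between -0.15 and 0.04 in the 6 comparisons, beside -0.01 to 0.02 over all genes tested.

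Clk encodes the activator whose RNA peaks around dawn. It had 88.1, 90.9, 89.6 and 85.1 CPM in PoX2[Df1.688] males and 71.7, 80.3, 79.9 and 91.3 CPM in Zhr[1] males, against 65.2, 62.6, 57.01 and 57.5 CPM in wild-type males. Every library of both mutants was above every wild-type library, with log2 fold changes of 0.60 ± 0.07 in PoX2[Df1.688] (adjusted p = 4.85e-06) and 0.45 ± 0.07 in Zhr[1] (adjusted p = 9.14e-05). Pof[D119] males had 55.8, 60.9, 54.3 and 50.99 CPM, which overlapped wild type, with a log2 fold change of -0.13 ± 0.07 (adjusted p = 0.186).

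In females the pattern of Clk was different. Zhr[1] females had 23.5, 35.3, 33.4 and 36.1 CPM, against 37.2, 38.02, 43.4 and 42.7 CPM in wild-type females, and the groups did not overlap although the highest Zhr[1] library was close to the lowest of wild type. The log2 fold change was -0.35 ± 0.11 (adjusted p = 0.0194). The call was lost without replicate 1 of Zhr[1] females, the lowest library, and without replicate 3 or 4 of wild-type females, with log2 fold changes of -0.41 to -0.22 and adjusted p up to 0.0593 over the 8 fits that each left out 1 library. PoX2[Df1.688] females had 35.4, 38.8, 35.7 and 33.5 CPM and Pof[D119] females had 41.6, 39.2, 41.6 and 39.3 CPM. Both overlapped wild type, and the log2 fold changes of -0.16 ± 0.11 and -0.01 ± 0.11 were not called (adjusted p = 0.357 and 0.982).

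The partner of Clk, cyc, whose RNA does not cycle in fly heads, was not called in any of the 6 comparisons with the main settings. The largest log2 fold change was in Zhr[1] females, at 0.24 ± 0.11 (adjusted p = 0.0754, 95% interval 0.04 to 0.45). Its levels there were 34.7, 23.1, 31.6 and 27.97 CPM, against 26.7, 23.6, 24.2 and 22.9 CPM in wild-type females, so 1 library of Zhr[1] lay within the wild-type range and 3 lay above it. It was called without that library, replicate 2, at 0.34 (adjusted p = 0.0122), and in 1 fit of all 32 libraries (adjusted p = 0.0228). In Pof[D119] males, cyc had 20.3, 21.9, 20.5 and 19.5 CPM, against 17.4, 18.8, 17.02 and 18.1 CPM in wild-type males, groups that did not overlap while the test gave an adjusted p of 0.0794 for a log2 fold change of 0.21 ± 0.08.

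The inhibitor gene per was called in 1 of the 6 comparisons. Zhr[1] males had 30.4, 29.8, 29.2 and 29.2 CPM, against 37.4, 36.9, 39.1 and 39.2 CPM in wild-type males. All 4 Zhr[1] libraries were lower, with a log2 fold change of -0.33 ± 0.07 (adjusted p = 0.00313). Over the other 5 mutant groups the log2 fold changes of per ran from -0.19 ± 0.10 in PoX2[Df1.688] females to 0.05 ± 0.10 in Zhr[1] females and none was called. In PoX2[Df1.688] females, 3 of the per levels of 31.1, 35.5, 30.9 and 31.01 CPM lay below the wild-type female values of 35.01, 38.2, 38.7 and 36.6 CPM and 1 lay within their range. Since per lies on the X-chromosome, it is the only member on the chromosome that carries the deletions of Zhr[1] and PoX2[Df1.688].

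The partner inhibitor tim was higher in 2 groups of mutant males. PoX2[Df1.688] males had 287, 258, 289 and 271 CPM, against 195, 259, 226 and 217 CPM in wild-type males, so that 1 mutant library lay just under the highest wild-type library. The log2 fold change was 0.35 ± 0.09 (adjusted p = 0.00980). Pof[D119] males had 269.6, 285, 264 and 258 CPM, of which 1 library lay within the wild-type range, with a log2 fold change of 0.26 ± 0.09 (adjusted p = 0.0411). That call held in only 1 of the 8 fits that each left out 1 library, the fit without replicate 2 of wild-type males, with log2 fold changes of 0.19 to 0.34 and adjusted p up to 0.147. It was also lost without a filter on low counts, with a replicate block and in 1 fit of all 32 libraries. In Zhr[1] males tim was at 222, 202, 202 and 169 CPM, which overlapped wild type (log2 fold change -0.14 ± 0.09, adjusted p = 0.302).

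In females tim was not called in a mutant. PoX2[Df1.688] females had 131, 116, 127 and 126 CPM, against 161, 144, 156 and 160.2 CPM in wild-type females. The groups did not overlap, but with the spread shared over the 16 female libraries the log2 fold change of -0.30 ± 0.12 had an adjusted p of 0.0909. Zhr[1] females spread more widely than any other group, at 171, 222, 191 and 132 CPM, and their log2 fold change was 0.18 ± 0.12 (adjusted p = 0.232). It ran from 0.06 to 0.30 with 1 library left out, and without replicate 4 of Zhr[1] females, the lowest, tim was called (adjusted p = 0.0217). In 1 fit of all 32 libraries tim was called in PoX2[Df1.688] females (adjusted p = 0.0342).

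The gene vri encodes the repressor of Clk and cry in the further loop. In males it had 116, 102, 107 and 103 CPM in Pof[D119], 98.96, 87.3, 86.2 and 88.7 CPM in Zhr[1] and 109, 111, 107 and 117 CPM in PoX2[Df1.688], against 144, 155, 158 and 162 CPM in wild type. The highest of the 12 mutant values was below the lowest of wild type. The log2 fold changes were -0.53 ± 0.07 in Pof[D119] (adjusted p = 1.90e-05), -0.74 ± 0.07 in Zhr[1] (adjusted p = 3.86e-07) and -0.43 ± 0.07 in PoX2[Df1.688] (adjusted p = 0.000226).

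In females vri had 90.2, 92.98, 67.4 and 92.00 CPM in Pof[D119], 90.5, 91.9, 100.2 and 78.6 CPM in Zhr[1] and 72.7, 72.7, 74.2 and 72.9 CPM in PoX2[Df1.688], against 115, 119.2, 121 and 129 CPM in wild type. Again the 12 mutant libraries lay below the 4 of wild type, and the PoX2[Df1.688] values were close together and low. The log2 fold changes were -0.51 ± 0.09 in Pof[D119] (adjusted p = 0.00113), -0.44 ± 0.09 in Zhr[1] (adjusted p = 0.00137) and -0.71 ± 0.09 in PoX2[Df1.688] (adjusted p = 6.26e-05). In each of the 6 comparisons vri stayed below the threshold in the 8 fits that each left out 1 library and in the 6 other settings tried. The 3 comparisons of a sex use the same wild-type values of vri, so they are not independent of each other.

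Pdp1, the activator that opposes vri, was not called in a mutant, from counts per gene that do not tell its transcripts apart. Its levels were 382 ± 21.97 CPM in Pof[D119], 358 ± 17.6 CPM in Zhr[1] and 355 ± 21.5 CPM in PoX2[Df1.688] males, against 375 ± 12.2 CPM in wild-type males (SD, n = 4 each). In females they were 355 ± 42.8 CPM in Pof[D119], 286 ± 35.5 CPM in Zhr[1] and 285 ± 21.7 CPM in PoX2[Df1.688], against 317 ± 20.96 CPM in wild type. The 95% intervals of the male log2 fold changes were -0.10 to 0.16, -0.16 to 0.10 and -0.16 to 0.10 in the same order of mutants.

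The repressor gene cwo had 97.6, 98.2, 113 and 107 CPM in Pof[D119] males, against 139.9, 120.1, 125 and 126 CPM in wild-type males. The groups did not overlap and the log2 fold change was -0.30 ± 0.07 (adjusted p = 0.00474). Zhr[1] males (103, 121, 107 and 113 CPM) overlapped wild type and PoX2[Df1.688] males (118, 118, 109.7 and 114 CPM) lay just below it. They had log2 fold changes of -0.17 ± 0.07 and -0.10 ± 0.07, which were not called (adjusted p = 0.0961 and 0.351), although that of Zhr[1] was in 1 fit of all 32 libraries (adjusted p = 0.0390). In females cwo ran between 0.04 and 0.07 on the log2 scale against wild type, with no call.

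The light receptor gene cry had 47.7, 49.9, 46.5 and 43.02 CPM in Zhr[1] females, against 57.01, 52.2, 59.1 and 60.8 CPM in wild-type females. Every Zhr[1] library was lower, with a log2 fold change of -0.32 ± 0.08 (adjusted p = 0.00382). In Pof[D119] females cry was at 57.01, 69.5, 67.8 and 64.5 CPM, with a log2 fold change of 0.16 ± 0.07 (adjusted p = 0.151), and in PoX2[Df1.688] females at 50.9, 55.1, 54.2 and 53.9 CPM, with -0.08 ± 0.08 (adjusted p = 0.467). In males no mutant was called, and the wild-type values of 48.8, 72.1, 55.5 and 61.01 CPM were the most spread of the 8 groups. Without replicate 2 of wild-type males, the highest of these, cry was called higher in Zhr[1] males, at 0.30 (adjusted p = 0.0374).

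**Figure D2:**
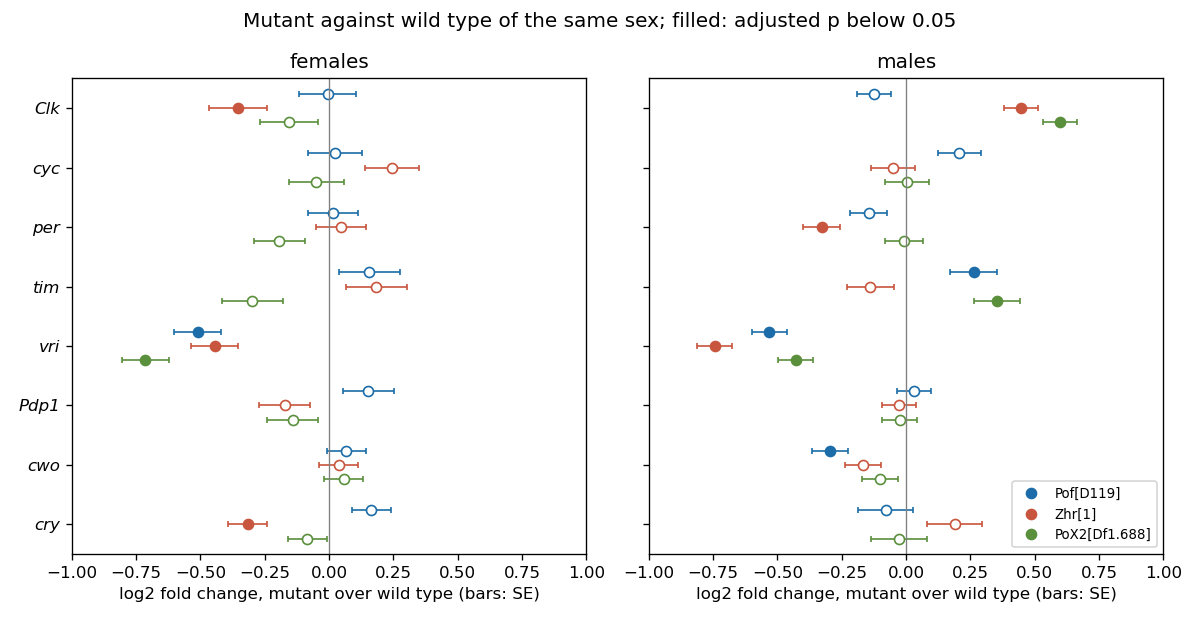
Log2 fold change of each clock gene, mutant over wild type of the same sex, from the edgeR fit of the 16 libraries of that sex, with bars for the standard error and filled points for an adjusted p below 0.05. The vri points are filled and to the left of 0 in all 6 comparisons, while Clk lies right of 0 in Zhr[1] and PoX2[Df1.688] males and left of 0 in Zhr[1] females.

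Markers of tissues moved with some of these values. In Zhr[1] females, where Clk, vri and cry were lower, 9 of 10 eye markers, 3 of 4 glia markers and 2 of 6 neuron markers were also lower. In the same females 5 of 6 female germline markers and 2 of 4 follicle cell markers were higher. Of all genes tested in these females, 20.8% were called lower and 20.3% higher. Their follicle cell sums were 1025 to 2549.8 CPM, against 149 to 813 CPM in wild-type females. Their glia sums were 254 to 307 CPM, against 328 to 375 CPM in wild-type females, and their neuron sums were 613 to 979 CPM, against 964 to 1264 CPM. In PoX2[Df1.688] females 5 of 10 eye markers were lower, against 10.5% of all genes tested. In these females 3 of 6 germline markers and 1 of 4 follicle cell markers were higher, against 8.9%. Their follicle cell sums of 1023 to 2261 CPM also lay above those of wild-type females without overlap. In Pof[D119] females 7 of 10 eye markers were lower and 1 was higher, and 2 of 4 fat body markers were higher. Of all genes tested in that comparison, 8.4% were lower and 8.08% higher. The fat body sums of Pof[D119] females were 5466 to 6981 CPM, against 2872 to 5387 CPM in wild-type females, without overlap. Follicle cell sums of Pof[D119] females were 65.6, 8.73, 637 and 25.4 CPM, with 0 of 4 markers called. All but replicate 3 lay below the 149 to 813 CPM of wild-type females. The part of these differences in the clock gene values was not tested.

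In males the sums of the female germline markers overlapped across stocks, at 263 to 358 CPM in Pof[D119], 269 to 323 CPM in Zhr[1] and 270.03 to 285 CPM in PoX2[Df1.688], against 281 to 305 CPM in wild type. Sums of 7 testis markers were 514, 626, 450 and 389 CPM in Pof[D119] males, against 327 to 392 CPM in wild-type males. Replicates 1, 2 and 3 of Pof[D119] thus lay above every wild-type library. Testis sums were 322 to 447 CPM in Zhr[1] and 383 to 455 CPM in PoX2[Df1.688] males, which overlapped wild type. Eye sums overlapped too, at 2069.9 to 2755 CPM in Pof[D119], 1872 to 2357 CPM in Zhr[1] and 1441 to 2196 CPM in PoX2[Df1.688], against 1873 to 2837 CPM in wild type. Among male groups, 6 of 10 eye markers were called lower in Pof[D119], 2 in Zhr[1] and 3 in PoX2[Df1.688]. The shares of all genes tested called lower were 11.6%, 10.4% and 9.4% in that order. Glia sums were 462 to 507 CPM in PoX2[Df1.688] males, wholly below the 512 to 555 CPM of wild-type males, with 1 of 4 markers called lower. Glia sums of Pof[D119] males (448 to 522 CPM) and Zhr[1] males (486 to 598 CPM) overlapped wild type. Of 4 fat body markers, 2 were called higher in Zhr[1] males, against 12.6% of all genes tested. In Pof[D119] and PoX2[Df1.688] males 1 each was called higher, against 13.6% and 11.5%. Fat body sums were 3396 to 5589 CPM in Pof[D119], 4749.7 to 6087 CPM in Zhr[1] and 3603 to 5151 CPM in PoX2[Df1.688], against 2849 to 6099.5 CPM in wild type. The part of these markers in the male values, the lower vri included, was not tested.

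Males and females of one stock were compared in a fit of all 32 libraries. Clk was higher and cyc and cwo were lower in males of all 4 stocks. Of the members, 5 were called in Pof[D119], against 61.8% of 13948 genes tested, 6 in Zhr[1], against 70.7%, 7 in PoX2[Df1.688], against 61.9%, and 6 in wild type, against 60.7%. Most of the genes tested were thus called between whole males and females, as were most members. The median log2 fold change over all genes was 0.02 in Pof[D119], 0.25 in Zhr[1], 0.15 in PoX2[Df1.688] and 0.07 in wild type, and upper quartile scaling shifted it by -0.22, -0.18, -0.19 and -0.19 in that order. Summed testis markers were 327 to 392 CPM in wild-type males and 6.02 to 9.14 CPM in wild-type females, so the organs sampled differ, and their part in the sex differences was not tested.

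Among the members Clk had the largest difference between the sexes in Zhr[1], PoX2[Df1.688] and wild type, and tim in Pof[D119]. For Clk the log2 fold changes of males over females were 0.46 ± 0.09 in Pof[D119], 1.33 ± 0.10 in Zhr[1], 1.30 ± 0.10 in PoX2[Df1.688] and 0.59 ± 0.09 in wild type, and males lay above females in every library of each stock. The largest adjusted p of the 4 was 0.000101. For its partner cyc the log2 fold changes were -0.28 ± 0.09, -0.81 ± 0.10, -0.44 ± 0.10 and -0.45 ± 0.09 in the same order of stocks, with no overlap and adjusted p up to 0.0118. The partners of the activator pair thus differed between the sexes in opposite directions.

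The inhibitor tim was higher in males of 3 stocks, with log2 fold changes of 0.63 ± 0.11 in Pof[D119] (adjusted p = 5.58e-06), 1.14 ± 0.11 in PoX2[Df1.688] (adjusted p = 8.10e-11) and 0.53 ± 0.11 in wild type (adjusted p = 6.01e-05). In Zhr[1], where males and females overlapped, it was 0.15 ± 0.11 (adjusted p = 0.204). The gene per was lower in Zhr[1] males than in Zhr[1] females, at -0.40 ± 0.08 (adjusted p = 7.71e-05). In Pof[D119] per was at -0.13 ± 0.08 (adjusted p = 0.151), and it was called lower in males without replicate 4 of females and under upper quartile scaling. In PoX2[Df1.688] per was at 0.18 ± 0.08 (adjusted p = 0.0494), a call that held in 1 of 8 fits without 1 library (replicate 2 of females), at 0.09 to 0.24, and that upper quartile scaling turned to -0.0077.

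In the further loop, vri was higher in males of Pof[D119] (0.32 ± 0.08), PoX2[Df1.688] (0.60 ± 0.08) and wild type (0.36 ± 0.08), with adjusted p up to 0.000794. Upper quartile scaling ended that call in Pof[D119] and in wild type. In Zhr[1], vri averaged 90.3 ± 5.85 CPM in males and 90.3 ± 8.88 CPM in females (SD, n = 4 each), with a 95% interval of the log2 fold change of -0.16 to 0.16. With 1 library left out the log2 fold change was -0.19 to -0.05, below the value of the full fit in all 8 fits. Without replicate 4 of females vri was called lower in males (adjusted p = 0.0312). In Zhr[1] the full fit also lay above every such fit for per (-0.58 to -0.41), tim (-0.10 to 0.12), Pdp1 and cry (0.31 to 0.49). The cause of this shift was not tested. Pdp1 was called higher in males of Zhr[1] (0.32 ± 0.08), PoX2[Df1.688] (0.31 ± 0.08) and wild type (0.24 ± 0.08), and upper quartile scaling ended all 3 calls. Without 1 library the call of Pdp1 also ended in 3 of 8 fits in Zhr[1] (replicates 1 and 4 of females, replicate 3 of males) and in 4 of 8 in wild type (replicates 1 and 3 of each sex), with log2 fold changes of 0.12 to 0.30 and 0.13 to 0.26.

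The repressor gene cwo was lower in males, with log2 fold changes of -0.56 ± 0.07 in Pof[D119], -0.44 ± 0.07 in Zhr[1], -0.38 ± 0.07 in PoX2[Df1.688] and -0.18 ± 0.07 in wild type (adjusted p up to 0.0245). The wild-type call was lost without replicate 2 of females or replicate 2 or 4 of males, with log2 fold changes of -0.32 to -0.14, and under DESeq2 and RLE scaling. The receptor gene cry was called in Zhr[1], where it was higher in males, at 66.9, 73.2, 64.5 and 59.5 CPM in males and 47.7, 49.9, 46.5 and 43.02 CPM in females. The log2 fold change was 0.50 ± 0.09 (adjusted p = 2.98e-05). In Pof[D119] cry was at -0.21 ± 0.09 (adjusted p = 0.0581), and it was called lower in males without replicate 1 of females or replicate 2 or 3 of males (-0.28 to -0.17 over the 8 fits) and under upper quartile scaling, at -0.42 (adjusted p = 0.000157).

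**Figure D3:**
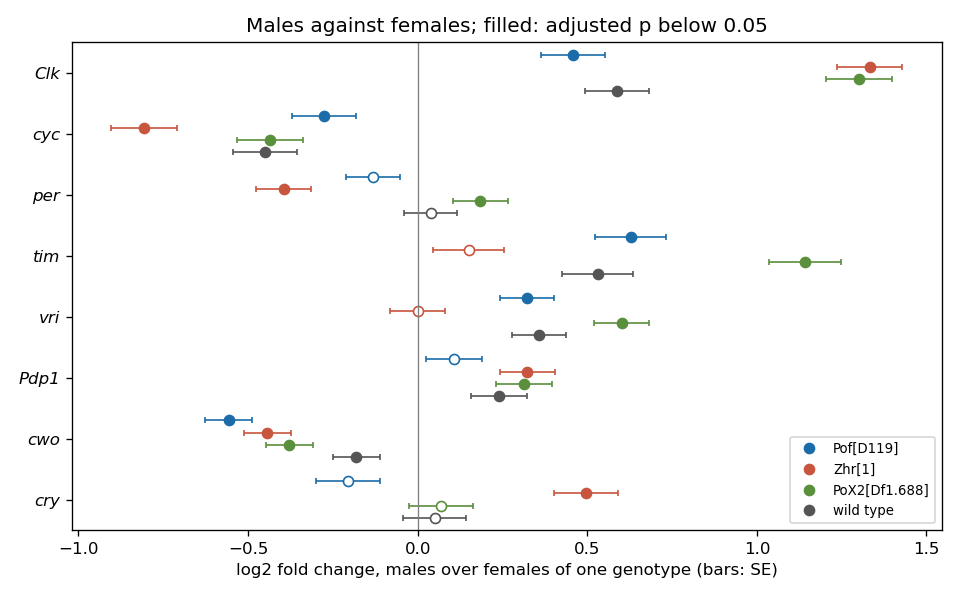
Log2 fold change of each clock gene, males over females of the same stock, from the edgeR fit of all 32 libraries, with bars for the standard error and filled points for an adjusted p below 0.05. Clk lies right of 0 and cyc and cwo left of 0 in all 4 stocks, with the largest Clk values in Zhr[1] and PoX2[Df1.688].

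Whether a mutant differed from wild type by another amount in males than in females was tested with an interaction term, given as the male minus the female log2 fold change. In Zhr[1], 4 of 8 members were called, against 23.1% of 13948 genes. They were Clk (0.74 ± 0.13, adjusted p = 0.000399), per (-0.43 ± 0.11, adjusted p = 0.00698), cry (0.45 ± 0.13, adjusted p = 0.0161) and vri (-0.36 ± 0.11, adjusted p = 0.0222). The call of cry ended in 6 of 16 fits that left out 1 library, at 0.31 to 0.55. The libraries were replicate 3 of wild-type females, replicates 1 and 3 of wild-type males, replicates 3 and 4 of Zhr[1] females and replicate 2 of Zhr[1] males. Under DESeq2 and RLE scaling the interactions of tim, cyc and cwo were called as well, and with 1 library left out they were called in 3, 5 and 5 of 16 fits.

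In PoX2[Df1.688], 2 of 8 members were called, against 5.79% of genes. Clk differed by 0.71 ± 0.13 (adjusted p = 0.00174) and tim by 0.61 ± 0.15 (adjusted p = 0.0137), and both were called in all 16 fits without 1 library. In Pof[D119], 1 of 8 was called, against 1.41% of genes. It was cwo at -0.38 ± 0.10 (adjusted p = 0.0463), a call that held in 5 of 16 fits without 1 library, at -0.42 to -0.32, with adjusted p up to 0.229. It ended without replicate 1, 3 or 4 of wild-type females or of wild-type males, replicate 1 or 3 of Pof[D119] females, and replicate 1, 2 or 4 of Pof[D119] males. For vri the interaction in Pof[D119] was -0.03 ± 0.11, with a 95% interval of -0.25 to 0.18 (adjusted p = 0.969). In PoX2[Df1.688] it was 0.24 ± 0.11, with an unadjusted interval of 0.02 to 0.46, and was not called (adjusted p = 0.203).

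The balance of evening and morning genes was taken per library as the mean log2 CPM of per, tim, vri, Pdp1 and cwo minus that of Clk and cry. It is a description, for which no test was made. Because whole flies of several ages were pooled and the phases are those of heads, it does not give an hour of collection. In females it was 1.45, 1.31, 1.16 and 1.21 in Pof[D119], 1.75, 1.65, 1.74 and 1.51 in Zhr[1] and 1.33, 1.16, 1.22 and 1.31 in PoX2[Df1.688], against 1.40, 1.50, 1.35 and 1.32 in wild type. Zhr[1] females lay above wild type, with the lowest of them next to the highest wild-type library, and the other mutants overlapped wild type. In males it was 1.34, 1.11, 1.21 and 1.29 in Pof[D119], 0.81, 0.62, 0.68 and 0.59 in Zhr[1] and 0.96, 0.79, 1.03 and 1.00 in PoX2[Df1.688], against 1.33, 1.12, 1.38 and 1.28 in wild type. Zhr[1] and PoX2[Df1.688] males lay below wild type without overlap, and Pof[D119] males overlapped it.

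Among males the mean balance was 0.94 ± 0.11 in PoX2[Df1.688] and 0.67 ± 0.10 in Zhr[1], against 1.28 ± 0.11 in wild type (SD, n = 4 each), which are differences of -0.33 and -0.60 on the log2 scale. In Zhr[1] females the mean was 1.66 ± 0.11, against 1.39 ± 0.08 in wild-type females, a difference of 0.27. The other 3 differences were -0.11 in Pof[D119] females, -0.14 in PoX2[Df1.688] females and -0.04 in Pof[D119] males. Within each group the 4 libraries spanned 0.17 to 0.29, less than the distance from Zhr[1] or PoX2[Df1.688] males to wild-type males. Not all evening genes differed in the same direction, since tim was higher and vri lower in PoX2[Df1.688] males. Their log2 fold changes against wild type were 0.60 for Clk and -0.03 for cry among morning genes. Among evening genes they were -0.01 for per, 0.35 for tim, -0.43 for vri, -0.03 for Pdp1 and -0.10 for cwo. The lower balance of PoX2[Df1.688] males is thus not separate from their Clk result.

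**Figure D4:**
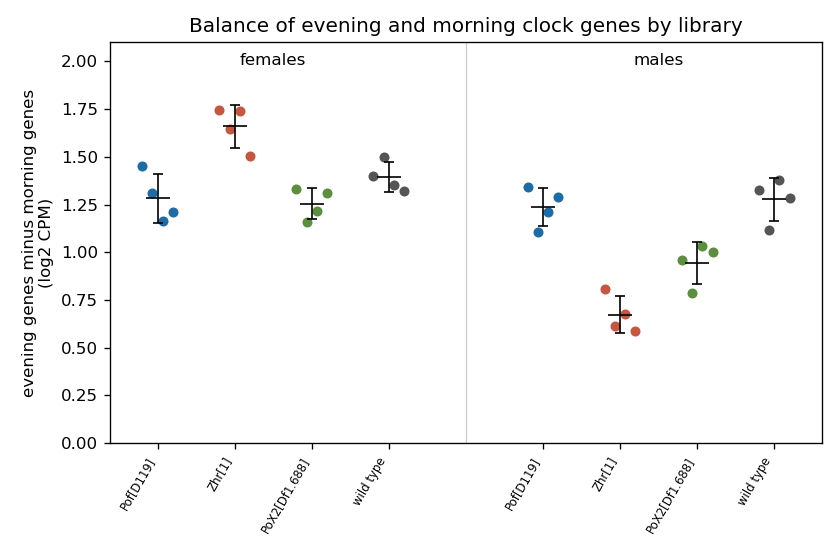
Mean log2 CPM of per, tim, vri, Pdp1 and cwo minus mean log2 CPM of Clk and cry in each library (points), with the mean and SD of 4 libraries in black, by stock and sex. Zhr[1] males (0.59 to 0.81) and PoX2[Df1.688] males (0.79 to 1.03) lie below wild-type males (1.12 to 1.38).

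Libraries of a group were alike in their clock genes. The SD of log2 CPM within groups was 0.09 for cwo, the least spread member, and 0.16 for tim, the most spread, against a median of 0.16 over 8111 genes with a mean of at least 10 CPM. All 8 members were below that median, and between 11.7% (cwo) and 45.6% (tim) of genes were less spread. Between groups the SD of mean log2 CPM was 0.55 for Clk, more than in 70.9% of genes, and 0.14 for per, more than in 8.95%. Clk was thus the member that differed most among the groups and per the member that differed least.

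When the 4 stocks were ordered by level within a sex, 9 of 48 pairs of neighbours did not overlap. The share of such pairs over all genes was not computed, and the order was set by the same means. The count is therefore not read as a result about the members. An exact permutation test of 4 against 4 libraries, two-sided, gave each of these 9 p = 0.0286, the smallest this design allows. With 9 of 48 pairs at that smallest p, it is 0.152 after Benjamini-Hochberg adjustment of this permutation test, so no pair passed the threshold. That does not show that neighbours were alike, since no single pair can have a smaller p with 4 libraries a group. In males vri followed the order Zhr[1], Pof[D119], PoX2[Df1.688] and wild type, with gaps without overlap at the first and the last step. In females the order of vri was PoX2[Df1.688], Pof[D119], Zhr[1] and wild type, and only the last step was without overlap. For Clk in males the order was Pof[D119], wild type, Zhr[1] and PoX2[Df1.688], and the step between wild type and Zhr[1] was without overlap. The edgeR test above called that step, and the last step of vri in both sexes.

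After subtraction of each group's mean, the members' levels were compared over the 32 libraries, as a description, since libraries share depth and the composition of tissues. By Pearson's r the highest correlation between members was that of vri with Pdp1 (Pearson r = 0.52, Spearman rho = 0.45), while by Spearman's rho that of tim with Pdp1 was higher (r = 0.47, rho = 0.51). The lowest r was that of vri with cwo (-0.54, with a rho of -0.45). For per and tim, the inhibitor pair, r was 0.19, and for Clk and cyc, the activator pair, r was -0.46 with a rho of -0.19. Of 10172 genes, those most like tim were CG14823 (r = 0.81), CG31233, CG5107, smp-30 and Adgf-A (r = 0.74), and those least like it Tbca (r = -0.71), CG11695, Mkp3, crp and mio. Those most like Clk were lncRNA:CR43611 (r = 0.76), Mst27D, Spn47C, lncRNA:CR44582 and CG12992, and those least like it dachs (r = -0.69), Pex11c, drd, CG14777 and CG12391. No clock gene was among them.

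Of 23 regulators of the clock, such as kinases and ubiquitin ligases that act on the per and tim proteins, 0 were higher and 2 lower in Pof[D119] females, against 16.5% of all genes tested called in either direction. In Zhr[1] females 7 were higher and 4 lower, against 41.1%, and in PoX2[Df1.688] females 5 and 3, against 19.4%. In males 2 were higher and 1 lower in Pof[D119], against 25.2%, 1 and 1 in Zhr[1], against 22.9%, and 2 and 3 in PoX2[Df1.688], against 20.9%. The kinase gene dco, whose product phosphorylates the per protein, averaged 189 ± 16.2 CPM in Zhr[1] females and 132 ± 9.58 CPM in wild-type females (log2 fold change 0.49 ± 0.08, adjusted p = 0.000285). The gene slmb, whose product marks that protein for breakdown, averaged 136 ± 10.1 CPM in Zhr[1] females and 99.9 ± 6.71 CPM in wild-type females (log2 fold change 0.42 ± 0.08, adjusted p = 0.000812), and both rose beside the higher germline markers, whose part was not tested. Mef2, a transcription factor of muscle and clock neurons, was lower, at 151 ± 12.7 CPM in Zhr[1] females and 208 ± 15.9 CPM in wild-type females (log2 fold change -0.49 ± 0.09, adjusted p = 0.000913). The gene nej, which encodes an acetyltransferase and coactivator, averaged 557 ± 13.5 CPM in PoX2[Df1.688] females and 430.4 ± 22.6 CPM in wild-type females (log2 fold change 0.38 ± 0.08, adjusted p = 0.00215). The kinase subunit gene CkIIalpha, whose product phosphorylates the per and tim proteins, averaged 104 ± 9.53 CPM in PoX2[Df1.688] females and 79.6 ± 5.24 CPM in wild-type females (log2 fold change 0.40 ± 0.10, adjusted p = 0.00907). Atx2, which takes part in translation of per RNA, averaged 264 ± 6.32 CPM in PoX2[Df1.688] males and 336 ± 22.9 CPM in wild-type males (log2 fold change -0.29 ± 0.06, adjusted p = 0.00144), and 262 ± 8.62 CPM in Pof[D119] females and 312 ± 4.24 CPM in wild-type females (log2 fold change -0.26 ± 0.05, adjusted p = 0.00354). The gene tws, which encodes a subunit of a phosphatase that acts on the per protein, averaged 146 ± 7.94 CPM in Zhr[1] males and 126 ± 2.54 CPM in wild-type males (log2 fold change 0.25 ± 0.06, adjusted p = 0.00484).

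Of 12 genes of clock output, 0 were called in Pof[D119] females, against 16.5% of all genes tested. In Zhr[1] females 4 were lower and 0 higher, against 20.8% lower and 20.3% higher among all genes, and in PoX2[Df1.688] females 1 was higher, against 8.9%. In males 1 was lower in Pof[D119], against 11.6%, 1 was higher and 2 lower in Zhr[1], against 12.6% and 10.4%, and 2 were higher in PoX2[Df1.688], against 11.5%. The gene to (takeout), a clock-controlled gene linked to feeding, had 46.1, 29.05, 17.9 and 12.9 CPM in Zhr[1] males, against 11.8, 10.98, 9.81 and 11.01 CPM in wild-type males. All 4 Zhr[1] libraries were higher but they spread widely, and without replicate 1, the highest, the log2 fold change was 0.90 rather than 1.32 (edgeR adjusted p = 0.00214 with all libraries). The RNA-binding protein gene lark, with a role in the timing of adult emergence, averaged 49.7 ± 1.76 CPM in Pof[D119] males and 61.96 ± 2.11 CPM in wild-type males (log2 fold change -0.32 ± 0.06, adjusted p = 0.000541), and 50.2 ± 2.32 CPM in Zhr[1] males and 61.96 ± 2.11 CPM in wild-type males (log2 fold change -0.27 ± 0.06, adjusted p = 0.00230). The gene e (ebony), an enzyme of glia with a role in rhythmic activity, averaged 124 ± 11.1 CPM in PoX2[Df1.688] males and 93.02 ± 8.33 CPM in wild-type males (log2 fold change 0.46 ± 0.10, adjusted p = 0.00422), and 115 ± 11.4 CPM in PoX2[Df1.688] females and 76.6 ± 4.94 CPM in wild-type females (log2 fold change 0.60 ± 0.15, adjusted p = 0.0112). None of the 4 glia markers was called higher in either sex of PoX2[Df1.688], and the tissue of the higher e was not tested. The gene Pdfr, which encodes the receptor of the clock neuropeptide, averaged 38.1 ± 1.604 CPM in PoX2[Df1.688] males and 29.5 ± 3.04 CPM in wild-type males (log2 fold change 0.42 ± 0.10, adjusted p = 0.00679).

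Of 3 relatives of tim and cry, the photolyase gene phr had 2.33, 2.39, 1.71 and 1.93 CPM in Pof[D119] males, against 8.22, 7.68, 7.72 and 9.46 CPM in wild-type males, and 6.66, 4.28, 7.03 and 6.29 CPM in Pof[D119] females, against 12.5, 12.3, 11.5 and 12.4 CPM in wild-type females. The groups did not overlap in either sex, with log2 fold changes of -1.99 (adjusted p = 1.19e-06) and -1.01 (adjusted p = 0.000139). The photolyase gene phr6-4, of the family of cry, averaged 7.35 ± 1.38 CPM in PoX2[Df1.688] males and 2.51 ± 0.351 CPM in wild-type males (log2 fold change 1.604 ± 0.20, adjusted p = 2.01e-05). The tim relative timeout averaged 39.3 ± 2.99 CPM in Zhr[1] females and 20.2 ± 2.14 CPM in wild-type females (log2 fold change 0.93 ± 0.18, adjusted p = 0.000743).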

How the data were processed

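Whole-fly RNA, depleted of ribosomal RNA, was sequenced as read pairs in 32 libraries. The deposited values are raw counts of read pairs per gene, made by the authors: reads were trimmed (Trimmomatic 0.36), ribosomal reads were removed, alignment to genome release 6.13 used STAR 2.5.4b, and read pairs were counted with featureCounts 1.6.3 without regard to strand, so reads in the exon overlaps of per and cry were not assigned by strand. Tables of repeats and satellite blocks were not used. Gene symbols were matched by FlyBase ID for 17288 of 17490 genes.

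Counts were tested with edgeR 4.0.16 (R 4.3.3; filterByExpr, TMM, quasi-likelihood F test, two-sided, adjusted p below 0.05), per sex over 16 libraries for mutant against wild type and over 32 libraries for the rest. The test was checked on simulated data in 3 comparisons: Pof[D119] against wild type in females and in males, and wild-type males against females. It found 76, 87 and 89 of 100 planted 2-fold changes in that order. Of 100 planted changes by the square root of 2, it found 33, 36 and 39. A gene that was not called can thus still differ by such an amount. The share found at the levels of the members was not computed. Printed CPM are scaled over 32 libraries. Replicate pairs of a group differed by more than counting noise in all 48 cases. Replicate numbers did not pair samples across groups (correlation of deviations -0.37 to 0.45). The 8 members and all lists were chosen with earlier results of these data known. All members were named. Of each other list, the up to 3 called genes of largest change per comparison could be named, and those given stayed called in every fit without 1 library. Likeness names the 5 most and 5 least like tim and Clk. DESeq2 1.42.0, other scalings, no filter, a replicate block, 1 fit of all libraries and leaving out each library were tried as alternatives. Of 80 other list entries 79 matched; para did not. A planned search for promoter motifs was not run, since no genome sequence was used here.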

Additional observations from a re-analysis of the deposited data

Results flagged for a closer look

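In 64 groups of 4 values (8 genes in 8 groups), 1 library stood far from the other 3 in 2 cases, where chance gives about 1 in 20. In PoX2[Df1.688] females, replicate 2 had 35.5 CPM of per, while the others had 31.1, 30.9 and 31.01 CPM. In Pof[D119] females, replicate 3 had 67.4 CPM of vri, while the others had 90.2, 92.98 and 92.00 CPM. The same library had the highest sums of female germline markers (1179 CPM) and of follicle cell markers (637 CPM) and the lowest of neuron markers (849 CPM) among Pof[D119] females, and the part of these in its vri value was not tested. Without it the log2 fold change of vri against wild type was -0.42.

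The difference from wild type was not the same in the 2 sexes for 7 combinations of gene and mutant, by an interaction term of the edgeR fit over 32 libraries. In Zhr[1] the male minus female log2 differences were 0.74 for Clk, -0.43 for per, 0.45 for cry and -0.36 for vri. In PoX2[Df1.688] they were 0.71 for Clk and 0.61 for tim, and in Pof[D119] -0.38 for cwo. In females of Zhr[1], eye markers were lower and germline markers higher than in wild type. Of 10 eye markers, 7 also had a called interaction in Zhr[1], against 23.1% of all genes tested. The part of tissue composition was not tested.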

How the results depend on the processing

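Over the 104 log2 fold changes of the members, direction and side of the threshold were kept in 97 under DESeq2, 96 under RLE scaling, 88 under upper quartile scaling, 99 without a filter on low counts and 100 with a replicate block, and in 42 of 48 with 1 fit of all 32 libraries. With each library left out in turn they were kept in 913 of 1024, with 44 calls lost, 21 gained and 46 turns of direction.

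The number of members called changed by over 1.5 times in 6 cases. In PoX2[Df1.688] females against wild type it was 2 rather than 1 with all 32 libraries in 1 fit. In the interaction of Pof[D119] it was 0 under RLE scaling, without a filter and with the replicate block, where cwo was lost, and in that of Zhr[1] it was 7 rather than 4 under DESeq2 and under RLE scaling. The replicate block changed no other count by that much. With 1 library left out, counts of called members ranged from 1 to 1 (Pof[D119] females), 2 to 4 (Zhr[1] females), 1 to 1 (PoX2[Df1.688] females), 2 to 3 (Pof[D119] males), 3 to 4 (Zhr[1] males) and 3 to 3 (PoX2[Df1.688] males) against wild type. They ranged from 5 to 6 (Pof[D119]), 5 to 6 (Zhr[1]), 6 to 7 (PoX2[Df1.688]) and 5 to 6 (wild type) between males and females, and from 0 to 1, 3 to 5 and 2 to 2 in the interactions of the mutants, in the order used above.

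Directions turned in small values. Clk in Pof[D119] females against wild type was 0.000725 under DESeq2, 0.000436 under RLE, 0.010 under upper quartile scaling, 0.0025 without a filter and 0.0041 in 1 fit. In PoX2[Df1.688] males against wild type cyc was -0.010 under upper quartile scaling, -0.0036 without a filter and -0.048 in 1 fit. Between males and females, upper quartile scaling gave Pdp1 in Pof[D119] -0.12, tim in Zhr[1] -0.032, per and cry in PoX2[Df1.688] -0.0077 and -0.12, and per and cry in wild type -0.15 and -0.14, and the replicate block gave vri in Zhr[1] 0.0025. In the interaction of PoX2[Df1.688], cyc was -0.015 and cry -0.013 under DESeq2, and cyc -0.016 and cry -0.014 under RLE. With 1 library left out, values against wild type that turned direction ranged from -0.070 to 0.091 (per), -0.043 to 0.031 (Clk) and -0.010 to 0.068 (cyc) in Pof[D119] females, -0.17 to 0.025 (cry) in Pof[D119] males, -0.089 to 0.023 (cyc) and -0.069 to 0.013 (Pdp1) in Zhr[1] males and -0.035 to 0.048 (per), -0.020 to 0.049 (cyc), -0.059 to 0.024 (Pdp1) and -0.12 to 0.079 (cry) in PoX2[Df1.688] males. Between the sexes they ranged from -0.098 to 0.12 (tim) in Zhr[1], -0.057 to 0.12 (cry) in PoX2[Df1.688] and -0.065 to 0.054 (per) and -0.057 to 0.080 (cry) in wild type, and in the interactions from -0.14 to 0.023 (vri) in Pof[D119], -0.025 to 0.12 (Pdp1) in Zhr[1] and -0.032 to 0.067 (cyc) and -0.062 to 0.12 (cry) in PoX2[Df1.688]. The cause was not tested, beyond the shift of all genes given for upper quartile scaling.

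With per, tim and vri alone as evening genes, the difference in balance from wild type was -0.28 in PoX2[Df1.688] females and -0.73 in Zhr[1] males. With 1 library left out it ranged from -0.17 to -0.07 (Pof[D119]), 0.24 to 0.32 (Zhr[1]) and -0.16 to -0.10 (PoX2[Df1.688]) in females, and from -0.09 to 0.0045, -0.66 to -0.57 and -0.39 to -0.28 in males of the same stocks. By Spearman's rho, 2 of the 10 genes named for tim and 5 of 10 for Clk were shared.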
